A study of Lotus japonicus with 16 samples.

Results

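Shoots of Lotus japonicus, a model legume, held 209 genes whose transcript levels changed with temperature at both a low and a sufficient phosphate supply and which were in neither list of root genes that changed with phosphate. They are 209 of the 3958 genes listed in the series, and 209 of the 294 shared by the authors' 2 shoot lists. The members were chosen by the authors' own results: for each supply, the authors' deposited table gives the gene an adjusted p below 0.05 and at least a 2-fold change (a log2 fold of 1 or more in either direction). The temperature folds given here are therefore a description and were not tested again. With temperature, 97 of the 209 genes rose at both supplies and 72 fell at both. Another 19 fell at low P and rose at sufficient P, and 21 rose at low P and fell at sufficient P.

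Plants of accession MG-20 grew in hydroponics for 3 weeks, with 16 h of light a day in all groups. The shoot groups were low P (6.4 µM phosphate) at high temperature, set against low P at favorable temperature, and sufficient P (64 µM phosphate) at high temperature, set against sufficient P at favorable temperature. High temperature was 30 °C by day and 29 °C by night, and favorable temperature was 23 °C by day and 22 °C by night. Each group had 2 libraries of whole shoots, and each library came from 3 pooled plants per the labels' protocols. The root groups had the same treatments, but the authors' root tables compared low P with sufficient P at each temperature. No table of shoots by phosphate supply or of roots by temperature was used here, so "shoot-only" says that a gene was not listed for phosphate in roots and says nothing about its response to temperature there. Whole shoots mix many cell types, and fewer cells of a type and less RNA per cell cannot be told apart in these data.

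A moderate rise in ambient temperature is sensed in plants partly through phytochrome B, a light receptor that also reads temperature, and through the clock protein ELF3, studied mainly in Arabidopsis thaliana. Both restrain growth-promoting transcription factors of the PIF family, which drive stem and petiole elongation in the warmth. Stronger heat calls on heat shock factors and the chaperone genes that they switch on. Phosphate shortage acts through PHR transcription factors, which the SPX proteins hold back while phosphate is plentiful. The gene table used here gives the 209 genes only locus symbols, all of them protein-coding, so none can be assigned to these pathways and no role is given for any of them.

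"Rose" and "fell" follow the headings of the authors' tables, in which an up-regulated gene was taken to be higher in warm shoots than at favorable temperature. This orientation is not stated in the tables, and if it were the other way round every direction below would turn. The tables also hold no values per library. The level of a gene at each temperature was derived from its base mean, the authors' mean of size-factor-normalised counts over the libraries of a table, and its fold. Each level is thus a group value with no spread of its own, and the error of a comparison is the authors' standard error (SE) of the log2 fold change. Depth per library is unknown.

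The 2 lists that the members come from differed in length. At low P the authors listed 851 of 20438 genes tested (4.16%), and at sufficient P they listed 1667 of 20144 (8.28%). The members were 24.6% of the low-P list and 12.5% of the sufficient-P list. Of the 209 members, 118 rose and 91 fell at low P, beside 1.74% of tested genes listed as higher and 2.43% listed as lower there. At sufficient P, 116 rose and 93 fell, beside 4.51% of tested genes listed as higher and 3.77% as lower. Rises were thus 56.5% of the members at low P, against 41.7% of that whole list, and 55.5% of the members at sufficient P, against 54.5% of that whole list. Since the rule used both contrasts, nothing is read from these shares. For the root lists that the rule excludes, 4.05% of tested genes were listed at high temperature and 10.1% at favorable temperature. Of the whole shoot lists, 29.4% of genes at low P and 25.1% at sufficient P were also in a root list.

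**Figure D1:**
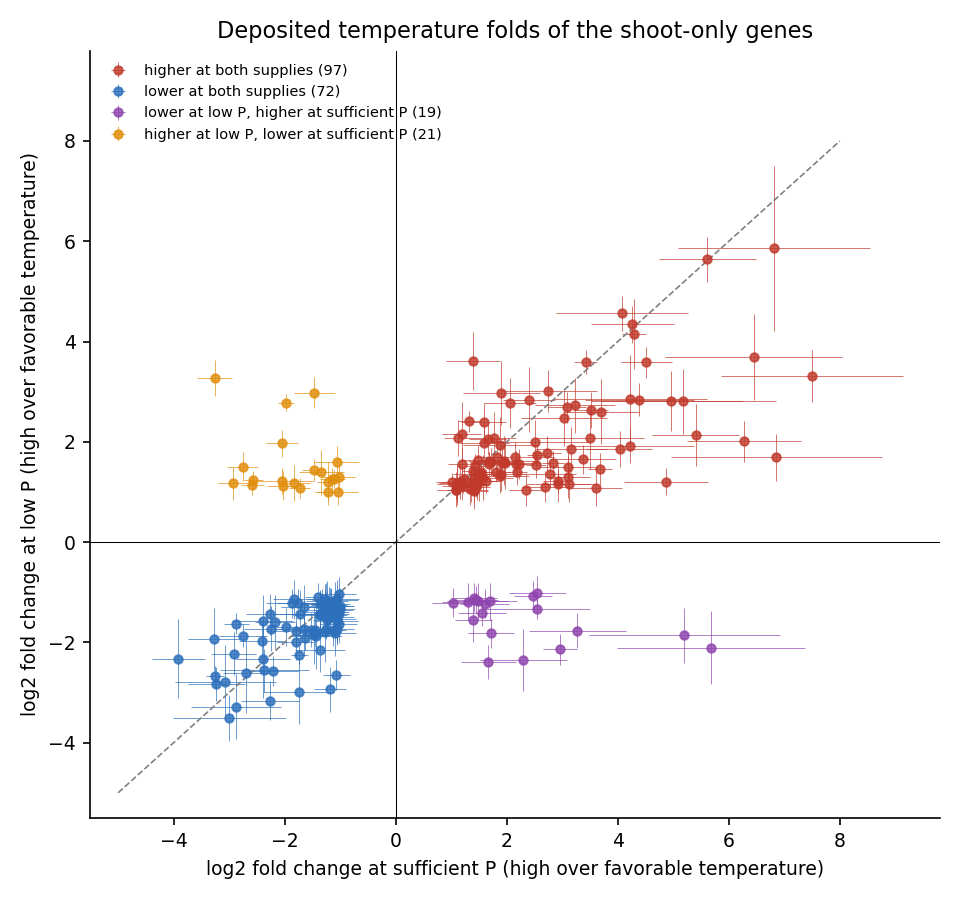
Each point is 1 of the 209 genes, with its log2 fold change (high over favorable temperature) at low P on the y axis and at sufficient P on the x axis, and bars of 1 authors' standard error. The 97 genes that rose at both supplies and the 72 that fell at both lie at upper right and lower left, the other 40 lie at upper left and lower right, and the dashed line marks equal folds.

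The 97 genes that rose at both supplies had a median log2 fold change of 1.58 at low P and 2.07 at sufficient P in the authors' deposited tables. LOC130732583 had the largest rise common to both supplies among genes with levels of at least 1 normalised count. Its derived level was 584 normalised counts at high temperature and 11.7 at favorable temperature in low-P shoots. In sufficient-P shoots it was 986 normalised counts at high temperature and 20.2 at favorable temperature. For LOC130732583 the authors' deposited tables list log2 fold changes of 5.64 at low P (SE 0.45) and 5.61 at sufficient P (SE 0.87). At either supply this gene was weakly expressed at favorable temperature and far more abundant at high temperature.

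LOC130730112 and LOC130729290 had much the same pattern. LOC130730112 stood at 566 normalised counts at high temperature and 24.0 at favorable temperature in low-P shoots, and at 837 and 49.5 in sufficient-P shoots. LOC130729290 stood at 476 normalised counts at high temperature and 23.5 at favorable temperature in low-P shoots, and at 765 and 39.9 in sufficient-P shoots. For LOC130730112 the authors' deposited tables list log2 fold changes of 4.56 at low P (SE 0.36) and 4.08 at sufficient P (SE 1.19). LOC130729290 is listed at 4.34 for low P (SE 0.37) and 4.26 for sufficient P (SE 0.75) in the authors' deposited tables. For LOC130732583, LOC130730112 and LOC130729290 the error was larger at sufficient P, at 0.75 to 1.19 log2 units, than at low P. LOC130718498 was far more abundant, at 22238 normalised counts at high temperature and 1250 at favorable temperature in low-P shoots, and at 4575 and 233 in sufficient-P shoots. For LOC130718498 the authors' deposited tables list log2 fold changes of 4.15 at low P (SE 0.70) and 4.30 at sufficient P (SE 0.22). Here the less precise fold was the one at low P.

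The 2 most abundant of the genes that rose at both supplies moved less than the genes above, which were picked for their large folds. LOC130746509 reached 173685 normalised counts at high temperature, against 75723 at favorable temperature, in low-P shoots, and 128591 against 63700 in sufficient-P shoots. For LOC130746509 the authors' deposited tables list log2 fold changes of 1.20 at low P (SE 0.18) and 1.01 at sufficient P (SE 0.19), so the second only just met the limit. LOC130732314 had 83042 normalised counts at high temperature and 25752 at favorable temperature in low-P shoots, and 45100 and 12810 in sufficient-P shoots. For LOC130732314 the authors' deposited tables list log2 fold changes of 1.69 at low P (SE 0.28) and 1.82 at sufficient P (SE 0.19). For both genes the 2 folds lay within 1 error of each other.

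The 3 highest single folds were all at sufficient P, in genes that were almost absent at favorable temperature at that supply. LOC130735314 is listed in the authors' deposited tables with log2 fold changes of 3.32 at low P (SE 0.51) and 7.50 at sufficient P (SE 1.63). At low P it was at 119 normalised counts at high temperature and 11.9 at favorable temperature. At sufficient P it was at 33.6 normalised counts at high temperature and at a fitted 0.19 at favorable temperature, so that fold comes from the fit and is no ratio of measured levels. LOC130732747 followed, at 1.69 for low P (SE 0.46) and 6.86 for sufficient P (SE 1.90) in the authors' deposited tables. At favorable temperature it was at 40.7 normalised counts at low P and about 1.00 at sufficient P. LOC130733011 reached 27.1 normalised counts at high temperature at low P and 21.1 at sufficient P, and was fitted under 1 normalised count at favorable temperature at both supplies (0.47 at low P and 0.19 at sufficient P). Of the 209 genes, 5 had a level fitted under 1 normalised count. Apart from LOC130735314 and LOC130733011 these were LOC130746969, which rose at both supplies, and LOC130734010 and LOC130747235, which fell at low P and rose at sufficient P.

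The 72 genes that fell at both supplies had median log2 fold changes of -1.63 at low P and -1.43 at sufficient P in the authors' deposited tables. LOC130735550 had the largest fall common to both supplies: it stood at 17.4 normalised counts at high temperature and 198 at favorable temperature in low-P shoots, and at 107 and 855 in sufficient-P shoots. For LOC130735550 the authors' deposited tables list log2 fold changes of -3.51 at low P (SE 0.46) and -3.00 at sufficient P (SE 1.02). LOC130727421 had 44.6 normalised counts at high temperature and 317 at favorable temperature in low-P shoots, and 17.8 and 168 in sufficient-P shoots. For LOC130727421 the authors' deposited tables list log2 fold changes of -2.83 at low P (SE 0.34) and -3.24 at sufficient P (SE 0.51). LOC130747778 and LOC130735637 were weakly expressed at high temperature, at 7.51 and 6.92 normalised counts in low-P shoots. LOC130747778 is listed at -3.29 for low P (SE 0.65) and -2.88 for sufficient P (SE 0.81), as log2 fold changes of the authors' deposited tables. LOC130735637 is listed there at -2.79 for low P (SE 0.74) and -3.07 for sufficient P (SE 0.91).

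LOC130738147 was, by its base mean over both tables, the most abundant gene that fell at both supplies. It had 2915 normalised counts at high temperature and 18639 at favorable temperature in low-P shoots, and 5774 and 55132 in sufficient-P shoots. For LOC130738147 the authors' deposited tables list log2 fold changes of -2.68 at low P (SE 0.21) and -3.26 at sufficient P (SE 0.16). A transcript that was abundant at favorable temperature was thus several-fold lower in the warm shoots at either supply. LOC130741160 had 7429 normalised counts at high temperature and 25173 at favorable temperature in low-P shoots, and 5882 and 12941 in sufficient-P shoots. For LOC130741160 the authors' deposited tables list log2 fold changes of -1.76 at low P (SE 0.31) and -1.14 at sufficient P (SE 0.23).

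**Figure D2:**
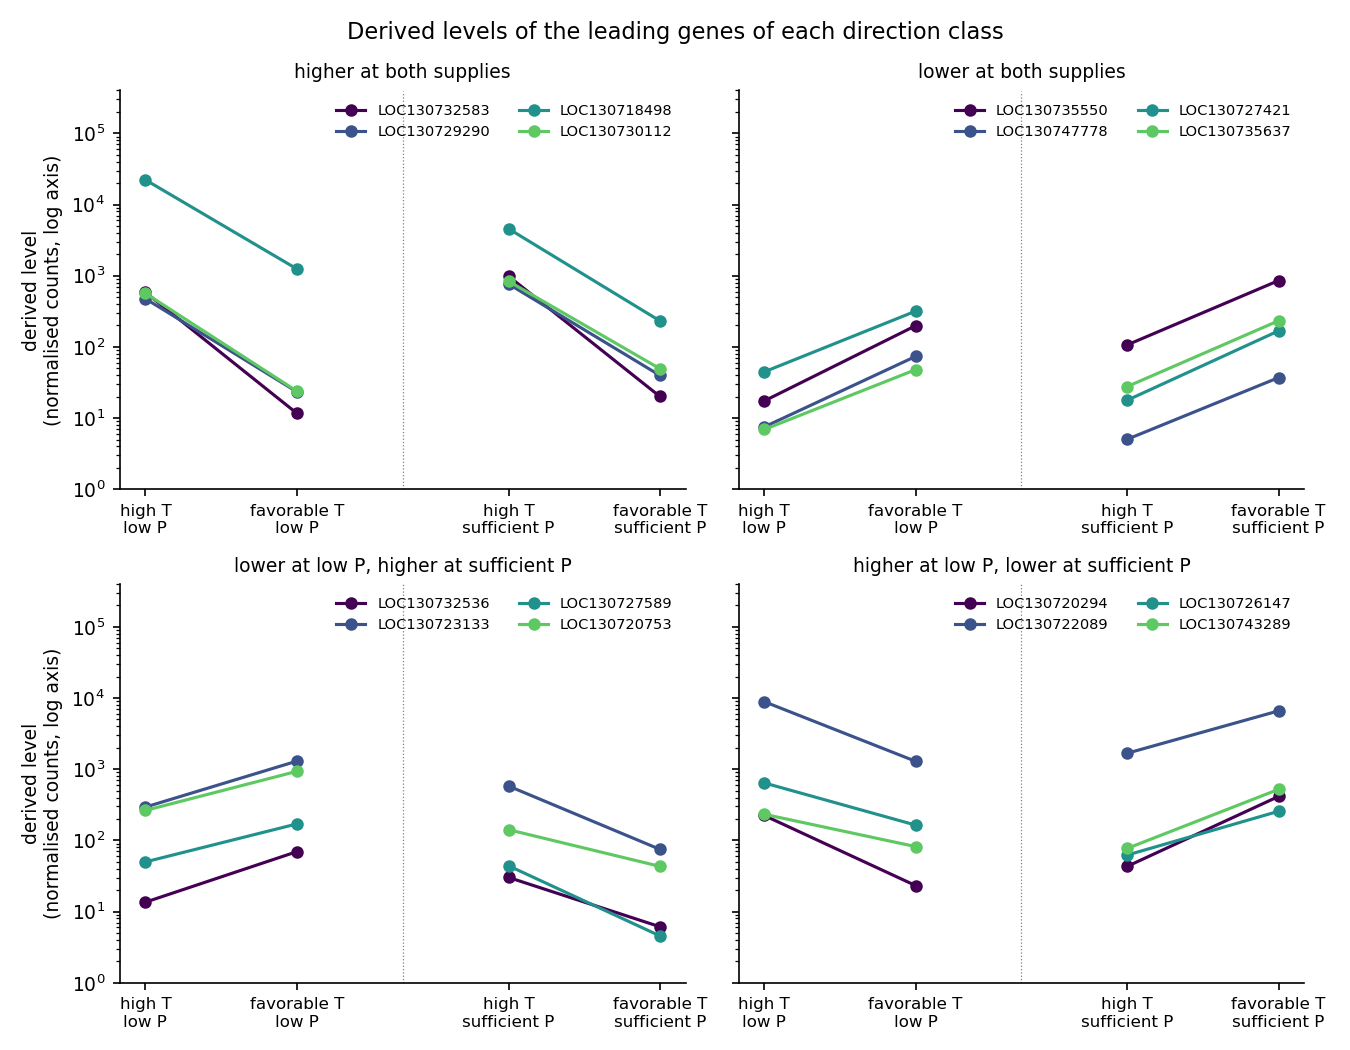
Derived levels (normalised counts, log axis) of the 4 genes with the largest change common to both supplies in each of the 4 direction classes, among genes with all levels at 1 normalised count or more, at high and favorable temperature in low-P shoots (left pair) and sufficient-P shoots (right pair). Lines join the 2 temperatures within a table, the 2 tables were normalised separately, and the points have no error bars because no values per library are used. In the lower panels the lines slope in opposite ways at the 2 supplies; LOC130722089, for example, lies at 8897 at high and 1294 at favorable temperature at low P, and at 1678 and 6602 at sufficient P.

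Together, 40 of the 209 genes (19.1%) moved in opposite directions at the 2 supplies. Among the 21 that rose at low P and fell at sufficient P, the median log2 fold changes were 1.26 and -1.73 in the authors' deposited tables. LOC130722089 was the most abundant and had small errors. It stood at 8897 normalised counts at high temperature and 1294 at favorable temperature in low-P shoots, and at 1678 and 6602 in sufficient-P shoots. For LOC130722089 the authors' deposited tables list log2 fold changes of 2.78 at low P (SE 0.17) and -1.98 at sufficient P (SE 0.14). Warmth thus went with a high level of this transcript in low-P shoots and with a low level in sufficient-P shoots.

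LOC130720294 had the largest change common to both supplies in this class, with opposite folds nearly equal in size. It stood at 224 normalised counts at high temperature and 23.2 at favorable temperature in low-P shoots, and at 43.3 and 415 in sufficient-P shoots. For LOC130720294 the authors' deposited tables list log2 fold changes of 3.27 at low P (SE 0.36) and -3.26 at sufficient P (SE 0.32). LOC130726147 had 642 normalised counts at high temperature and 164 at favorable temperature in low-P shoots, and 62.3 and 257 in sufficient-P shoots. LOC130743289 had 233 normalised counts at high temperature and 82.0 at favorable temperature in low-P shoots, and 77.3 and 521 in sufficient-P shoots. LOC130747349, the next most abundant of this class, is listed in the authors' deposited tables at log2 fold changes of 1.22 for low P (SE 0.26) and -2.05 for sufficient P (SE 0.56). In this class 3 genes changed at least 4-fold at low P and 8 did at sufficient P, and 1 did at both, LOC130720294.

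The 19 genes that fell at low P and rose at sufficient P had median log2 fold changes of -1.33 and 1.70 in the authors' deposited tables. LOC130723133 stood at 294 normalised counts at high temperature and 1297 at favorable temperature in low-P shoots, and at 581 and 75.0 in sufficient-P shoots. For LOC130723133 the authors' deposited tables list log2 fold changes of -2.14 at low P (SE 0.31) and 2.95 at sufficient P (SE 0.31). LOC130720753 stood at 264 normalised counts at high temperature and 932 at favorable temperature in low-P shoots, and at 141 and 43.2 in sufficient-P shoots. LOC130727589 stood at 49.9 normalised counts at high temperature and 170 at favorable temperature in low-P shoots, and at 44.0 and 4.56 in sufficient-P shoots. LOC130732536 was weaker still, at 13.6 normalised counts at high temperature and 69.3 at favorable temperature in low-P shoots, and at 30.2 and 6.13 in sufficient-P shoots. Across both tables, which were normalised separately, each of these 4 genes had its highest level at favorable temperature and low P and its lowest at favorable temperature and sufficient P.

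The most abundant genes of this class were LOC130710442 and LOC130740765. LOC130710442 had 1185 normalised counts at high temperature and 2509 at favorable temperature in low-P shoots, and 529 and 95.5 in sufficient-P shoots. LOC130740765 had 1079 normalised counts at high temperature and 2709 at favorable temperature in low-P shoots, and 190 and 32.7 in sufficient-P shoots. Its rise at sufficient P, listed by the authors' deposited table as 2.54 on the log2 scale (SE 0.96), was among the least certain of the members, with an adjusted p of 0.044 by the authors' DESeq2 test.

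The levels of the genes with opposite directions were also set across the 2 supplies. The 2 shoot tables were normalised separately. Over the 294 shared genes the base mean at low P exceeded that at sufficient P by a median of 0.59 on the log2 scale. That median mixes any difference of scale with differences of these genes between supplies, so the shift between the tables is unknown. Counts with the 0.59 taken off are a second reading and not a correction. Among the 19 genes that fell at low P and rose at sufficient P, the level at high temperature at low P over that at sufficient P had a median log2 ratio of -0.11, with a range of -1.50 to 2.51. At favorable temperature the median log2 ratio of the same 19 genes was 3.50, with a range of 1.66 to 7.08. Of these 19 genes, 14 lay within 2-fold between the supplies at high temperature and 0 did at favorable temperature. With the 0.59 taken off, 10 lay within 2-fold at high temperature and still 0 at favorable temperature. For the 15 shared genes of the same directions that were also in a root list, the median log2 ratios were 0.62 at high and 4.19 at favorable temperature.

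For the 21 genes that rose at low P and fell at sufficient P, the median log2 ratio of low over sufficient P was 1.71 at high temperature and -1.67 at favorable temperature. For the 9 shared genes of these directions that were also in a root list, it was 2.13 and -1.73. At high temperature 20 of the 21 genes were higher at low P, or 19 with the 0.59 taken off. At favorable temperature 0 of the 21 were higher at low P, with or without it. Within 2-fold between the supplies lay 2 of the 21 genes at high temperature and 6 at favorable temperature. With the 0.59 taken off these counts were 8 and 2, beside 10 and 0 of the 19 genes in the other class. The gap between the 2 ratios of a gene equals the difference between its folds and so is fixed by the choice of the class. That gap was at least 2.05 log2 units in the 40 genes, so none could lie within 2-fold between the supplies at both temperatures. Where the 2 ratios lie on the scale is not fixed by that choice, but it moves with the unknown shift between the tables.

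**Figure D3:**
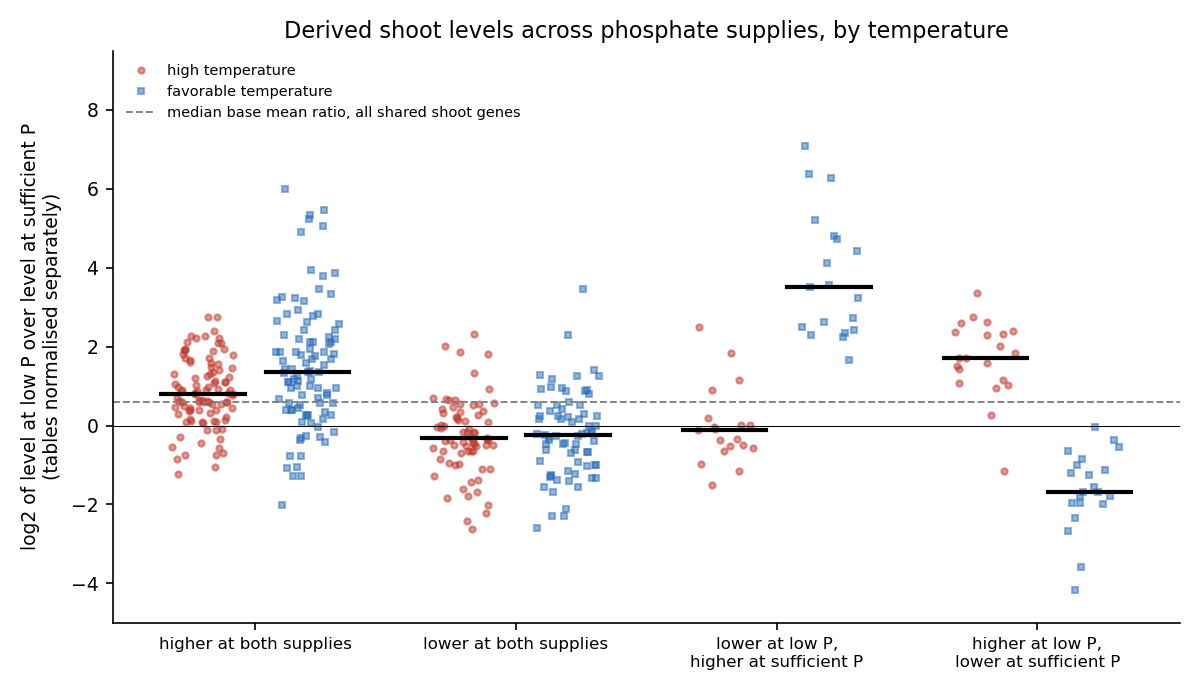
The log2 ratio of a gene's derived level at low P over that at sufficient P, at high temperature (circles) and favorable temperature (squares), in each of the 4 direction classes of the 209 genes; black bars are medians and the dashed line is the median base mean ratio of 0.59 over the 294 shared shoot genes. Genes that fell at low P and rose at sufficient P have medians of -0.11 at high temperature and 3.50 at favorable temperature, while the reverse class has 1.71 and -1.67.

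Among the 169 genes of one direction, the sizes of the folds at the 2 supplies were compared as a difference with its error, the root of the summed squared SEs, and with no test. For 139 of the 169 genes the 2 folds lay within 2 errors of each other, and for 100 within 1 error. The counts of larger folds differed between rises and falls, and were not tested because the folds chose the genes. Of the 97 genes that rose, 27 had the larger fold at low P and 70 at sufficient P; of the 72 that fell, 44 had the larger fold at low P and 28 at sufficient P. The median difference, low P minus sufficient P, was -0.35 on the log2 scale for genes that rose, with a median error of 0.54 for single genes. For genes that fell it was -0.08, where a negative value means a deeper fall at low P, with a median error of 0.55. Among the 85 shared genes also in a root list, the larger fold was at sufficient P for 29 of 37 rises. Of their falls, 11 had it at low P and 13 at sufficient P. Falls of at least 4-fold among the members numbered 17 at low P and 20 at sufficient P.

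Differences of at least 2 errors were found for 25 of the 97 genes that rose, 3 with the larger fold at low P and 22 at sufficient P. LOC130710575 led these. It had 1025 normalised counts at high temperature and 374 at favorable temperature in low-P shoots, and 2391 and 187 in sufficient-P shoots. For LOC130710575 the authors' deposited tables list log2 fold changes of 1.45 at low P (SE 0.32) and 3.68 at sufficient P (SE 0.21), a difference of -2.22 (error 0.38). LOC130742424 had 1964 normalised counts at high temperature and 848 at favorable temperature in low-P shoots, and 702 and 92.9 in sufficient-P shoots, a difference of log2 folds of -1.71 (error 0.35). LOC130714457 had 4146 normalised counts at high temperature and 1797 at favorable temperature in low-P shoots, and 1400 and 47.8 in sufficient-P shoots, a difference of -3.67 (error 0.81). On separately normalised scales, LOC130710575, LOC130742424 and LOC130714457 all had a higher level in low-P shoots at favorable temperature. At high temperature LOC130742424 and LOC130714457 were also higher at low P, while LOC130710575 was lower. Over all 97 genes, 83 had the higher level at low P at high temperature and 83 at favorable temperature, or 60 and 67 with the 0.59 taken off.

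The 3 genes with a larger rise at low P were picked out here once their values had been seen. LOC130745140 was very abundant, at 73999 normalised counts at high temperature and 13892 at favorable temperature in low-P shoots, and 35870 and 14334 in sufficient-P shoots. For LOC130745140 the authors' deposited tables list log2 fold changes of 2.41 at low P (SE 0.21) and 1.32 at sufficient P (SE 0.21). LOC130715502 had a difference of 2.22 (error 0.76) and LOC130714911 one of 0.95 (error 0.44) on the log2 scale.

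Of the 72 genes that fell, 5 had a difference of at least 2 errors, and they too are named after their values were seen. LOC130730290 fell more at low P, where it had 6057 normalised counts at high temperature and 38168 at favorable temperature, than at sufficient P, where it had 1652 and 3464. LOC130710048 also fell more at low P, with 20.1 normalised counts at high temperature and 154 at favorable temperature, against 107.5 and 245 at sufficient P. LOC130735263 fell slightly more at low P, by a difference of -0.51 (error 0.24). LOC130730569 and LOC130738147 fell more at sufficient P, with differences of 1.24 (error 0.31) and 0.58 (error 0.26).

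**Figure D4:**
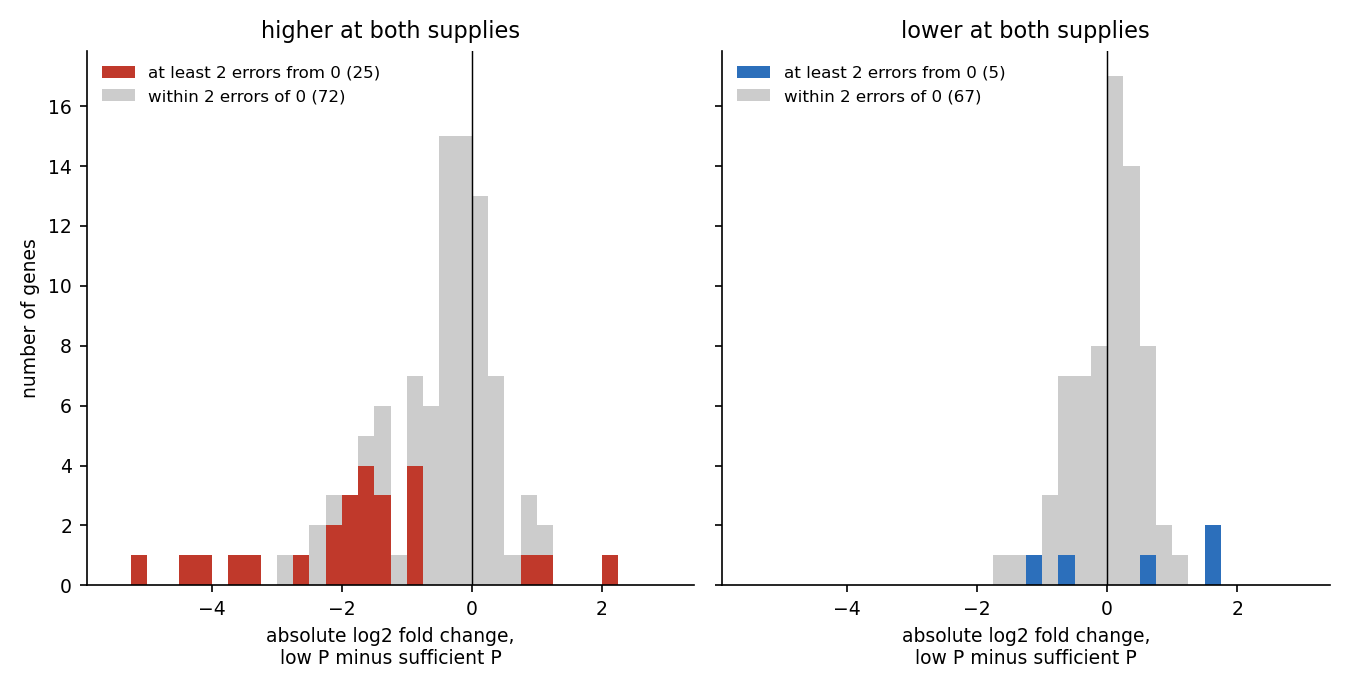
Histograms of the difference between the absolute log2 fold changes of a gene, low P minus sufficient P, for the 97 genes that rose at both supplies (left) and the 72 that fell at both (right), in steps of 0.25; coloured parts are genes whose difference is at least 2 errors from 0. Of the coloured genes, 22 of 25 lie on the sufficient-P side among rises, against 2 of 5 among falls.

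Large folds were more frequent among the members at sufficient P. At least 4-fold changes were seen in 56 of the 209 genes (26.8%) at low P, where 0.974% of tested genes were listed with such a change. At sufficient P they were seen in 85 (40.7%), where 2.57% of tested genes were. Both supplies had a change of at least 4-fold in 40 genes. The genes of the whole lists reached that size in 23.4% of cases at low P and 31.0% at sufficient P. The 85 shared genes also in a root list did so in 27.1% of cases at low P and 51.8% at sufficient P. The median base mean of the members was 181 normalised counts at low P, against 205 in the whole list, and 151 at sufficient P, against 205. The median SE of the members was 0.35 at low P, against 0.33 in the whole list, and 0.38 at sufficient P, against 0.32. Genes listed at 1 supply alone and in no root table had a median base mean of 158 normalised counts and a median SE of 0.35 at low P, and 186 and 0.31 at sufficient P. At low P the members were thus near these other genes that no root table lists.

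Errors followed the level. In the 69 members with the lowest mean base mean, up to 109 normalised counts, the median SE was 0.47 at low P and 0.52 at sufficient P. In the 70 highest, from 369 normalised counts upward, it was 0.24 at low P and 0.22 at sufficient P. Since a gene with a large error is listed only with a large fold, the median absolute log2 fold changes of 1.86 at low P and 2.30 at sufficient P in these 69 genes, against 1.41 and 1.68 in these 70, do not compare the size of the responses. Opposite directions occurred in 9 of these 69 genes, in 16 of the 70 genes between, and in 15 of the highest 70. Falls at both supplies numbered 27, 30 and 15 in the same order, and rises at both 33, 24 and 40.

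The other 85 genes shared by the shoot lists, which were also listed for phosphate in roots, gave a comparison for the mix of directions. Both rose in 97 of 209 members (46.4%) and in 37 of the 85 (43.5%), and both fell in 72 members (34.4%) and 24 of the 85 (28.2%). A fall at low P with a rise at sufficient P was seen in 19 members (9.09%) and 15 of the 85 (17.6%), and the reverse in 21 members (10.0%) and 9 of the 85 (10.6%). The difference between the 2 sets was not tested, because genes are not replicates.

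Position on the chromosomes was not used by the rule. Gene order was taken from the RefSeq assembly LjGifu_v1.2, which is named for Gifu and not for the accession of these plants. The gene order of the plants themselves was not examined. In the assembly, 5 pairs of members were immediate neighbours among protein-coding genes. LOC130730112 and LOC130732583, with their large rises at both supplies, are one such pair. LOC130735262 and LOC130735263 are another, and both fell at both supplies. LOC130735262 stood at 2268 normalised counts at high temperature and 6238 at favorable temperature in low-P shoots, and at 2137 and 4693 in sufficient-P shoots. LOC130735263 stood at 668 normalised counts at high temperature and 3166 at favorable temperature in low-P shoots, and at 665 and 2217 in sufficient-P shoots. The pairs LOC130738833 with LOC130735550 and LOC130722124 with LOC130722123 also fell at both supplies.

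The remaining pair moved apart. LOC130730569 fell to 204 normalised counts at high temperature, against 629 at favorable temperature, in low-P shoots, and to 139 against 1014 in sufficient-P shoots. Its neighbour LOC130730568 rose to 7300 normalised counts at high temperature, against 2204 at favorable temperature, in low-P shoots, and to 3707 against 632 in sufficient-P shoots. These pairs were named after their values were seen. Reads shared between near-identical or overlapping neighbours could not be examined, since neither counting settings nor sequences were used here. A neighbour listed in the same shoot table was found for 31 members (14.8%) at low P, against 13.2% of that whole list, and for 42 members (20.1%) at sufficient P, against 15.5% of that whole list.

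Some members only just met the limits. At low P the smallest folds were those of LOC130749326 and LOC130749136, which the authors' deposited table lists at 1.00 (SE 0.25) and 1.01 (SE 0.26) on the log2 scale. At sufficient P they were those of LOC130738530 and LOC130739676, which the authors' deposited table lists at -1.00 (SE 0.27) and -1.01 (SE 0.24) on the log2 scale. The largest adjusted p-values by the authors' DESeq2 test were 0.049 for LOC130721351 and 0.046 for LOC130717876 at low P, and 0.049 for LOC130709861 and 0.044 for LOC130740765 at sufficient P. In all, 28 members lay within 0.1 of the log2 limit in at least 1 table, and 78 had an adjusted p over 0.01 in at least 1. Genes just outside the limits are not in the tables used here, so no values can be set beside these.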

How the data were processed

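The members and lists were chosen with earlier results of these data known. Per the labels' protocols, directional libraries of poly(A) RNA were read as 150 bp pairs. RSEM 1.3.3 and DESeq2 1.44.0 are named in the submitters' processing notes, beside FastQC 0.14.0 and Trimmomatic 0.39.2. Their settings and genome build: not given in the sources used here. In total the authors deposited 4 tables, 1 per comparison. Per the file headers they hold the base mean (normalised counts averaged over libraries), the log2 fold change and its standard error, the Wald statistic (a score), the p-value and the adjusted p-value. Counts or values per library were not analysed here, so no gene was retested.

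Members are the gene identifiers in both shoot tables and in neither root table. Levels at high and favorable temperature were derived from base mean and fold for 2 libraries per group. Genes tested were recovered as adjusted over raw p of the top gene, and this was tested on simulated data. The formula for the levels was checked there with exact folds only. That check says nothing on levels derived from fitted folds. All 209 identifiers matched RefSeq symbols of LjGifu_v1.2. Since the authors' build is not named, that table served for symbols, biotype and neighbour order only. Planned lists by gene description, promoter motif and protein signature were not scored, as no descriptions or sequences were used. Named genes are, per direction class and with levels of at least 1, the 4 with the largest smaller fold and the 2 with the highest base mean, plus the 3 largest folds, the 3 largest differences over error and those at the limits; others are marked as chosen after their values were seen. Python 3.11.15 and pandas 2.3.3 were used.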

Additional observations from a re-analysis of the deposited data

Results flagged for a closer look

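The temperature effect went in opposite directions at the 2 phosphate supplies for 40 of the 209 genes (19.1%). Among the 85 shared genes also in a root list it did so for 24 (28.2%), so opposite directions are not particular to the members. Of the 40 members, 21 rose at low P and fell at sufficient P, and 19 did the reverse. The difference between the 2 folds of a gene was not tested, because both folds had already been used to choose the genes. The absolute difference of log2 folds ran from 2.05 to 7.78 over the 40 genes. For LOC130734010 and LOC130747235, which had the widest differences of folds, at -7.78 (error 1.84) and -7.05 (error 1.80), the level at sufficient P and favorable temperature was fitted under 1 normalised count.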

How the results depend on the processing

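No paired analysis was possible because no table gives single libraries; for the same reason no replicate was left out. Promoter windows were not varied, as no sequences were used. Of 46 recomputed values, 27 stayed within their limits, 19 moved and 0 turned round. The limits were a factor of 1.5 for counts, an exact binomial interval over the genes for shares and the median SE for medians. Counts and shares have no direction, and each class fixes the sign of its medians, so none could turn round. Counting identical rows once removed 0 genes, so those values could not move. Leaving out genes with a level under 1 kept 204 of the 209. The 209 members became 88 where log2 folds of 1.5 or more, up or down, were asked for at both supplies, 40 with at least 2, 131 with an adjusted p under 0.01 and 115 with a base mean of at least 100. Under the same 4 limits, the 97 genes that rose became 50, 24, 68 and 54, and the 72 that fell became 27, 12, 38 and 37. The 19 that fell at low P and rose at sufficient P became 7, 3, 9 and 7, and the reverse class of 21 became 4, 1, 16 and 17. With the root lists ignored, the classes of 97, 72, 19 and 21 became 134, 96, 34 and 30, and the total 294. The class of 19 thereby went from 9.09% of the set to 11.6%. The share of one direction, 80.9%, became 90.0% with log2 folds of at least 2. Fewer genes under stricter limits follow from the limits themselves. The unknown depth and the 2 libraries per group limit every single value.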
